A study of Mus musculus with 10 samples.

Results

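The 10 genes described here report on glucocorticoid action and on the stress responses that run beside it in the heart. They are the glucocorticoid receptor gene Nr3c1, the receptor's target genes Fkbp5, Tsc22d3, Sgk1 and Zbtb16, the metallothionein genes Mt1 and Mt2, the lipid-handling gene Angptl4, and Cebpd and Lcn2, which belong to the acute phase response. They were chosen as a named set with earlier results of these data known, and were looked up by symbol. All 10 were found among the 78298 genes of the table and passed the filter on low counts. Levels were measured by bulk RNA sequencing of hearts from female mice on a C57BL/6J background, 72 h after a single intraperitoneal dose of 30 mg/kg doxorubicin, an anthracycline cancer drug that damages heart muscle. Of the 10 hearts, 5 were labelled wild type (WT1 to WT5 here) and 5 were labelled as carrying a germline deletion of p38δ, a stress-activated kinase encoded by Mapk13 (KO1 to KO5). Both groups had received the drug and no untreated heart was analysed here, so the comparison asks how levels differ with p38δ genotype after doxorubicin and cannot give the effect of the drug. The deletion is in every cell of the body, the age of the mice is not given in the sources used here, and sample titles begin differently in the groups, so a cohort that went with the titles cannot be told apart from genotype.

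Glucocorticoids released by the adrenal gland bind a receptor that waits in the cytoplasm in a complex with heat shock protein 90 and immunophilins. The receptor then enters the nucleus and switches on genes such as Fkbp5 and Tsc22d3, whose products hold back the receptor itself and inflammatory transcription factors. Metallothioneins are small cysteine-rich proteins that bind zinc and copper, and their genes are switched on by the zinc sensor MTF-1 and also by glucocorticoids. Angptl4 encodes an inhibitor of lipoprotein lipase that is induced by fasting through fatty acid receptors of the PPAR family and by glucocorticoids.

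Library totals ranged from 21403189 to 40627138 counts, and levels are given as CPM, counts scaled to a common library size with TMM factors. A pair of libraries stood apart and bear on the members. WT1 carried RNA of neighbouring tissues, with a summed level of 12 airway and lung markers (led by Bpifa1 and Scgb1a1) of 2192 CPM against 168 in WT3 and 0.904 to 3.31 in the other 8 hearts. Its skeletal muscle, adipocyte, atrial, mesothelial and macrophage marker sums were also the highest of the 10, at 551, 469, 1438, 169 and 506 CPM. KO4 had the highest sum of 10 cardiomyocyte markers, 59570 CPM against 22280 to 50570 in the other 9, and was the highest heart for 6 of them. Much of that sum was Myh6 (24290 CPM), and without it, a sum formed after the values were seen, KO4 had 35280 CPM against 36620 in WT4. Tnnt2 was not highest in KO4 (7349 CPM against 9603 in WT4), and Myh7 was lowest there (2273 CPM against 3050 to 8944). Mapk13 held 292, 5, 2, 1 and 4 counts in WT1 to WT5 and 12, 10, 10, 15 and 9 in KO1 to KO5. Its fitted log2 fold change was -1.76 (edgeR quasi-likelihood test, adjusted p = 0.780), but 2.13 without WT1 (edgeR adjusted p = 0.0443), so its total level did not check the labels, and every direction below is between hearts as labelled. The deleted stretch is not given in the sources used here, and counts over the whole gene cannot show whether it is absent.

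The start regions of the metallothionein genes and of Sgk1 hold matches to elements for which these genes are known, and are printed for that reason. Of the 10 members, 6 had RefSeq promoter windows of 300 bases (250 before and 50 after a start, table build GRCm38.p6), 13 windows in all, and sequences were placed on GRCm39 by exact match. Metal response element cores, bound by MTF-1, were searched as TGCACNC and TGCGCNC on both strands. At least 1 core lay in 25.7% of 32851 windows of all genes and 3 or more lay in 1.97%. Among member windows, that of Mt2 held 4 cores, that of Mt1 held 3 and 1 of those of Sgk1 held 1. Each is shown within 30 bases of the plus strand, with the core in capitals. Mt2 cores 3 and 4 read on the minus strand. The stretches overlap annotated exons of Mt2 or Mt1, except Mt2 core 1, which overlaps an exon of Gm45774 alone, a gene on the opposite strand.
Mt2 core 1, chr8:94899012-94899041: agcatcgcctcTGCACCCggcccctcgggc
Mt2 core 2, chr8:94899107-94899136: cgcagacccttTGCGCTCagctcctttgct
Mt2 core 3, chr8:94899185-94899214: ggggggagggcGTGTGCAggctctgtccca
Mt2 core 4, chr8:94899239-94899268: gaattcgggtcGTGCGCAggcccaggggcg
Mt1 core 1, chr8:94905683-94905712: cggtcccgctgTGCACACtggcgctccagg
Mt1 core 2, chr8:94905708-94905737: ccagggagctcTGCACTCcgcccgaaaagt
Mt1 core 3, chr8:94905726-94905755: cgcccgaaaagTGCGCTCggctctgccaag

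A full glucocorticoid response element was searched as AGAACA and TGTTCT with 3 bases between them. It was found in 3 of the 32851 windows, or 0.00913%, and 1 of the 3 lies before a start of Sgk1, beginning 189 bases upstream. The 250 bases before that start (GRCm39, plus strand, element in capitals) overlap no annotated exon.
Sgk1, chr10:21869539-21869788: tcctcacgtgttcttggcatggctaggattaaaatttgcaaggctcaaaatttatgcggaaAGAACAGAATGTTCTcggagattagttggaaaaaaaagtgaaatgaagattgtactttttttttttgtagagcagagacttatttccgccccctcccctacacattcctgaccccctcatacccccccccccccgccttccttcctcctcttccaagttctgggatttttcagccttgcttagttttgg

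One arm of the element alone, AGAACA on either strand, lay in 19% of all windows and in 4 of the 13 member windows, those of Sgk1 and Tsc22d3. A PPAR element (AGGTCA repeated with 1 base between) lay in 0.0396% of all windows and a C/EBP site (TTGCGCAA or TTGCATCA) in 1.08%. None of the 13 member windows held either, and members without a window were not searched. Matches of this kind describe the letters only, and windows this short leave out distant elements.

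None of the 10 genes passed the test between the groups. Over all 16700 genes tested, 0.353% passed edgeR's quasi-likelihood test at an adjusted p of 0.05, 0.707% passed DESeq2, 0.335% limma voom and 0.545% limma voom with quality weights, and 0 of the 10 members passed any of these. An unadjusted edgeR p under 0.05 was reached by 6.86% of all genes and by 0 members. Groups that did not overlap in CPM were found for 1.78% of all genes and for 0 members. Fitted log2 fold changes, given as knockout-labelled minus wild-type-labelled, were above 0 for 4 members and below 0 for 6, with a median of -0.07 against -0.01 over all genes tested. Intervals were wide for several genes, so the plot of fold changes shows what sizes of difference these 10 hearts leave possible.

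**Figure D1:**
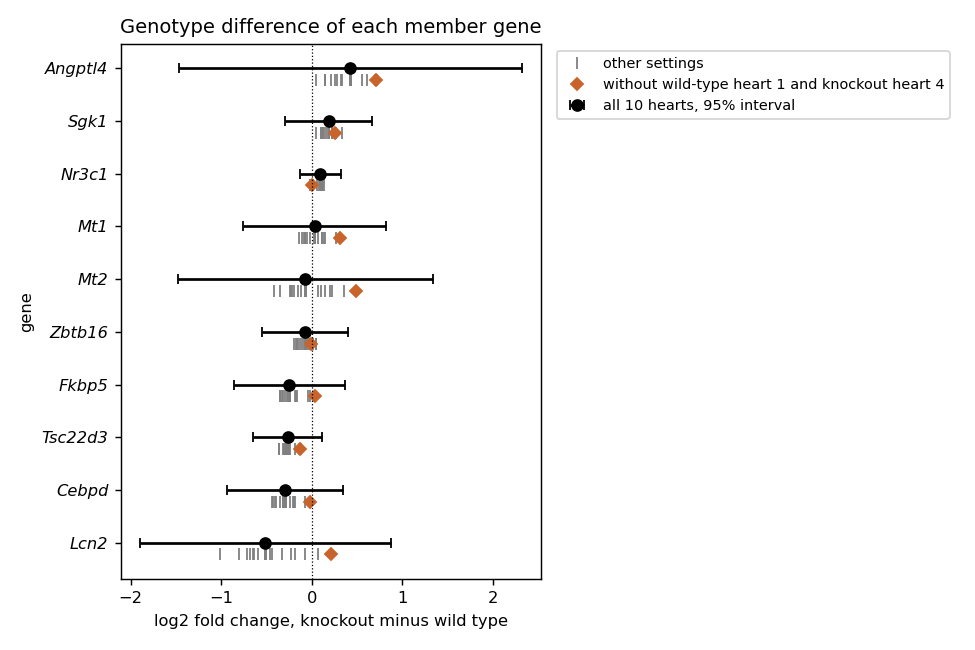
Fitted log2 fold change of each member gene, knockout-labelled minus wild-type-labelled, with 95% intervals (black, n = 5 per group), the values under other settings (grey ticks) and without WT1 and KO4 together (orange diamonds). Every interval includes 0, the narrowest is that of Nr3c1 (-0.13 to 0.32) and the widest that of Angptl4 (-1.47 to 2.32).

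Nr3c1 (ENSMUSG00000024431, chromosome 18, 39543598 to 39652474, GRCm39), which encodes the glucocorticoid receptor, was the steadiest of the 10 between hearts. WT1 to WT5 had 75.4, 72.2, 74.98, 64.0 and 71.4 CPM, and KO1 to KO5 had 66.6, 69.96, 73.5, 98.3 and 73.6 CPM. KO4 stood above the other 9 hearts, which lay close together. Group means were 71.6 ± 4.57 and 76.4 ± 12.6 CPM (SD, n = 5), a log2 fold change of 0.09 ± 0.10 (SE, interval -0.13 to 0.32, edgeR adjusted p = 0.866). Without KO4 the knockout-labelled mean was 70.9 ± 3.37 CPM (n = 4). In whole-heart RNA, fewer cells that make a transcript and less of it per cell cannot be told apart, here and for every gene that follows.

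Fkbp5 (ENSMUSG00000024222, chromosome 17, 28618058 to 28737521) encodes the co-chaperone FKBP51, which lowers the receptor's affinity for hormone and so closes a feedback loop. Its level was 74.1, 44.1, 56.6, 76.5 and 58.5 CPM in WT1 to WT5 and 58.6, 52.7, 66.5, 20.4 and 62.7 CPM in KO1 to KO5. A single heart, KO4, was far below the rest, at 34.0% of the mean of the other knockout-labelled hearts, and the 4 others fell inside the wild-type-labelled range. The log2 fold change was -0.25 ± 0.28 (SE, interval -0.86 to 0.36, edgeR adjusted p = 0.868, exact permutation p = 0.452), and -0.04 without KO4.

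Tsc22d3 (ENSMUSG00000031431, chromosome X, 139440091 to 139501408) encodes GILZ, a leucine zipper protein that restrains NF-κB and AP-1. WT1 to WT5 stood at 110, 116, 109, 125 and 116 CPM, and KO1 to KO5 at 119, 92.9, 106, 53.2 and 107 CPM. The wild-type-labelled hearts differed little among themselves (coefficient of variation 5.64%, against 26.7% in the other group), and KO4 was again lowest. Means were 115 ± 6.50 and 95.8 ± 25.6 CPM (SD, n = 5; log2 fold change -0.27 ± 0.17 SE, interval -0.65 to 0.11, edgeR adjusted p = 0.766, exact permutation p = 0.103). Without KO4 the second mean was 106 ± 10.8 CPM (exact permutation p = 0.190).

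Sgk1 (ENSMUSG00000019970, chromosome 10, 21758083 to 21875802) encodes a kinase that acts on ion channels and cell survival, and its start region holds the full element printed above. It measured 55.6, 78.9, 80.2, 72.9 and 72.9 CPM in WT1 to WT5 and 113, 94.8, 62.3, 45.5 and 94.8 CPM in KO1 to KO5. KO1, KO2 and KO5 were above every wild-type-labelled heart while KO4 was below all of them, so the groups overlapped. The log2 fold change was 0.19 ± 0.22 (SE, interval -0.29 to 0.66, edgeR adjusted p = 0.872, exact permutation p = 0.643). With KO4 left out it was 0.34 (edgeR adjusted p = 0.763, exact permutation p = 0.119), with means of 72.1 ± 9.83 (n = 5) and 91.1 ± 20.97 CPM (n = 4).

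Zbtb16 (ENSMUSG00000066687, chromosome 9, 48563141 to 48748664) encodes the zinc finger repressor PLZF, a strongly hormone-responsive transcription factor. Its levels were 98.5, 87.0, 123, 156 and 127 CPM in WT1 to WT5 and 116, 84.5, 149, 71.9 and 141 CPM in KO1 to KO5. High and low hearts occurred in both groups, with means of 118 ± 26.9 and 112 ± 33.7 CPM (SD, n = 5). The log2 fold change was -0.07 ± 0.22 (SE, interval -0.55 to 0.40, edgeR adjusted p = 0.959).

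**Figure D2:**
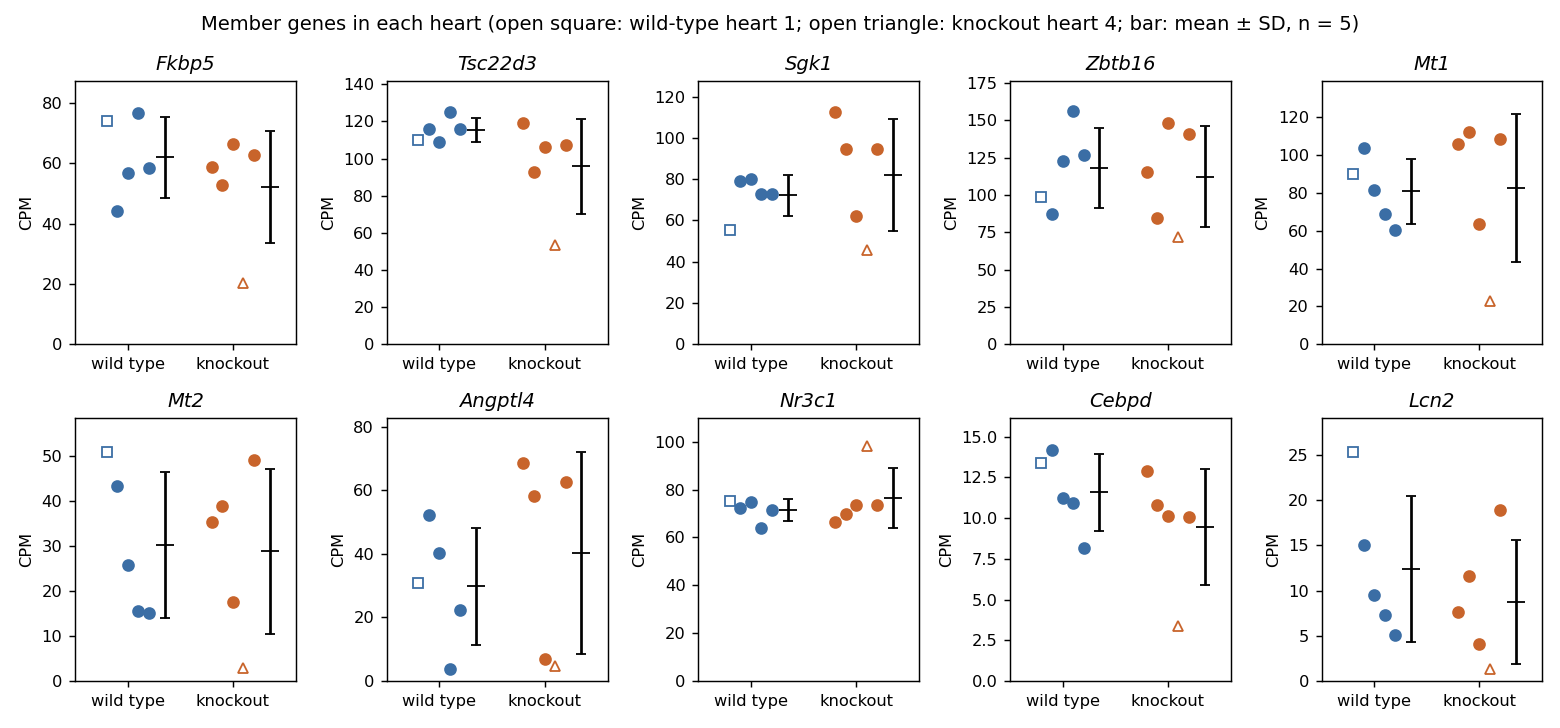
CPM of the 10 member genes in each heart, blue for wild-type-labelled and orange for knockout-labelled, with WT1 as an open square, KO4 as an open triangle and the group mean ± SD (n = 5) as a bar. The groups overlap in every panel, and KO4 is the lowest point in 8 of the 10 and the highest for Nr3c1.

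Both metallothionein genes lie close together on chromosome 8. Mt1 (ENSMUSG00000031765, 94905710 to 94906955) had 89.8, 104, 81.5, 68.6 and 60.4 CPM in WT1 to WT5 and 106, 112, 63.5, 22.7 and 109 CPM in KO1 to KO5. Mt2 (ENSMUSG00000031762, 94898819 to 94900207) had 50.7, 43.4, 25.8, 15.5 and 15.2 CPM in WT1 to WT5 and 35.4, 38.9, 17.6, 2.95 and 49.0 CPM in KO1 to KO5. KO4 was lowest for both, WT4, WT5 and KO3 were low for both, and the range was wider for Mt2, whose highest heart was 17.2 times the lowest against 4.95 times for Mt1. Mt2 was 13% of Mt1 in KO4, 22.6% to 56.5% in the wild-type-labelled and 27.7% to 45.1% in the other knockout-labelled hearts, on the CPM scale.

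The difference between the groups was smaller than the spread between hearts in both genes. The log2 fold change was 0.03 ± 0.36 for Mt1 (SE, interval -0.76 to 0.82, edgeR adjusted p = 0.990) and -0.07 ± 0.63 for Mt2 (SE, interval -1.47 to 1.34, edgeR adjusted p = 0.987). Since reads of such similar genes could be divided between them, the sum was also compared, at 111 ± 32.3 and 111 ± 56.8 CPM (SD, n = 5, exact permutation p = 0.833). The direction of Mt1 and of Mt2 changed under several of the other settings, none of which gave a call. Transcript models of Mt2 are overlapped on the opposite strand by Gm45774 (1.68 ± 0.672 and 1.54 ± 1.20 CPM), and the strand setting is not given in the sources used here, so their reads cannot be told apart. The other metallothionein genes were near the floor. Mt3, the brain form, had at most a mean of 0.330 CPM in a group and was not tested. Mt4, a form of stratified epithelium named here after its values were seen, had 804 counts (17.7 CPM) in WT1 and 0 in the other 9 hearts, which allows up to 3 counts in each.

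Angptl4 (ENSMUSG00000002289, chromosome 17, 33992724 to 34000804) varied most among the hearts together with Mt2 and Lcn2. It stood at 30.7, 52.2, 40.3, 3.70 and 22.3 CPM in WT1 to WT5 and 68.5, 58.3, 6.90, 4.70 and 62.7 CPM in KO1 to KO5. In each group some hearts were very low (WT4, KO3 and KO4) and the other 7 lay between 22.3 and 68.5 CPM. The log2 fold change was 0.43 ± 0.84 (SE, interval -1.47 to 2.32, edgeR adjusted p = 0.933, exact permutation p = 0.937). The same 3 hearts were also the lowest for Pdk4, the pyruvate dehydrogenase kinase that rises in fasting, with 959, 1016 and 707 CPM against 1695 to 4891 in the other 7. Plin2, a lipid droplet coat protein, was likewise lowest in them, at 50.3, 62.6 and 40.7 CPM against 68.6 to 140. The PPAR receptor gene Ppara went the other way, at 32.0, 40.7 and 37.2 CPM in these 3 against 19.4 to 30.5. Lpl, which encodes lipoprotein lipase, was not low in them, at 9621, 8924 and 7719 CPM against 4888 to 8246. Endothelial markers (8 genes, led by Fabp4, itself a target of PPAR receptors, and Pecam1) summed to 948, 949 and 1061 CPM in these 3 and 1074 to 1455 in the others, a separation that came from Fabp4 (354, 342 and 414 CPM against 440 to 766). Without Fabp4 the other endothelial markers summed to 595, 607 and 647 CPM, against 634 to 708, and Kdr was highest in KO4 (172 CPM). Cardiomyocyte markers summed to 50570, 43870 and 59570 CPM in these 3, against 22280 to 44270. The part of these cell-type sums in the Angptl4 pattern was not tested.

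Cebpd (ENSMUSG00000071637, chromosome 16, 15705150 to 15708895) encodes C/EBPδ, a transcription factor of the acute phase response that glucocorticoids and cytokines induce. It had 13.4, 14.2, 11.3, 10.9 and 8.18 CPM in WT1 to WT5 and 12.9, 10.8, 10.1, 3.37 and 10.1 CPM in KO1 to KO5. Apart from KO4 the hearts were within a narrow band, and without it the knockout-labelled mean was 11.0 ± 1.33 CPM (n = 4) beside 11.6 ± 2.35 (n = 5). Over all 10 hearts the log2 fold change was -0.30 ± 0.29 (SE, interval -0.93 to 0.34, edgeR adjusted p = 0.850).

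Lcn2 (ENSMUSG00000026822, chromosome 2, 32274645 to 32278264) encodes lipocalin 2, an iron-siderophore binding protein of epithelia, neutrophils and injured heart. Its level was 25.3, 15.0, 9.51, 7.27 and 5.09 CPM in WT1 to WT5 and 7.63, 11.6, 4.05, 1.36 and 18.9 CPM in KO1 to KO5, where 1.36 CPM in KO4 rests on 42 counts. The highest heart was WT1, which carried the airway markers and 127 CPM of the lactoferrin gene Ltf, made by neutrophils and by secretory epithelia. The neutrophil gene S100a9 had 8.41 CPM in WT1 against 0.419 to 7.18 in the others. Neutrophil markers without Ltf, a sum formed after the values were seen, were highest in KO2. They summed to 21.7 CPM there, 15.3 in WT1 and 2.16 to 8.90 in the rest. The log2 fold change was -0.51 ± 0.62 (SE, interval -1.90 to 0.87, edgeR adjusted p = 0.876), and -0.07 without WT1. The part of airway tissue in the WT1 value was not tested.

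Per kilobase of annotated exon, Mt1 was the most abundant of the 10, at 64.8 ± 13.7 and 66.3 ± 31.2 CPM per kb in the wild-type-labelled and knockout-labelled hearts (SD, n = 5). Mt2 followed with 31.7 ± 17.1 and 30.3 ± 19.3, and Tsc22d3 with 18.6 ± 1.05 and 15.5 ± 4.13 CPM per kb. Zbtb16 (12.6 ± 2.87 and 11.95 ± 3.59), Sgk1 (11.99 ± 1.64 and 13.6 ± 4.54) and Nr3c1 (9.09 ± 0.580 and 9.70 ± 1.597) came next. Angptl4 (6.64 ± 4.09 and 8.95 ± 7.04), Fkbp5 (5.598 ± 1.21 and 4.72 ± 1.67), Lcn2 (4.74 ± 3.08 and 3.32 ± 2.63) and Cebpd (3.09 ± 0.627 and 2.53 ± 0.958) were lowest. Ranges of mean ± SD did not overlap in the wild-type-labelled hearts between Mt1 and Mt2, Tsc22d3 and Zbtb16, or Sgk1 and Nr3c1. They overlapped for these pairs in the knockout-labelled hearts, and in both groups for the other neighbours in this order. Annotated exons here include the longest transcript models, which lowers the value of genes with long untranslated parts.

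Fkbp5 and Angptl4 lie on the chromosome of the deleted gene, Fkbp5 only 0.25 Mb and Angptl4 4.99 Mb from Mapk13. Within 2 Mb of Fkbp5, 5 of 75 tested genes passed edgeR's test (6.67%, 3 up and 2 down in knockout-labelled hearts), against 0.353% of all genes. Within 2 Mb of Angptl4 it was 1 of 139 (0.719%, lower). Neither member was among them, nor were the nearest tested neighbours of Fkbp5 (Fance, Rpl10a and Tead3 on one side, E230001N04Rik, Srpk1 and Slc26a8 on the other) or of Angptl4 (Rab11b, Gm64919 and Rab11bos1, then Kank3, Rps28 and Ndufa7). Fkbp5 was therefore a gene close to the deletion whose level did not pass the test in a region where other genes did.

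The larger pattern in these genes was between single hearts and not between the groups. KO4 was the lowest of the 10 hearts for 8 members, namely Fkbp5, Tsc22d3, Sgk1, Zbtb16, Mt1, Mt2, Cebpd and Lcn2, and next to lowest for Angptl4. Over all tested genes it was lowest for 17.8%. Its level as a share of the mean of the other 4 knockout-labelled hearts was 8.38% for Mt2, 9.58% for Angptl4, 12.9% for Lcn2, 23.3% for Mt1 and 30.7% for Cebpd. For Sgk1, Tsc22d3 and Zbtb16 it was 49.9%, 50% and 58.7%, and for the receptor gene Nr3c1 139%. Of 18 tested genes for receptor chaperones, co-regulators and steroid enzymes, KO4 was the highest heart for 3 and the lowest for 5. Its shares over all tested genes were 16.6% and 17.8%. Among these 18, Nr3c2 (the mineralocorticoid receptor, 35.4 CPM against 19.1 to 28.8) and Fkbp4 (the co-chaperone FKBP52, 154 CPM against 78.4 to 128) were highest in KO4. Hsd11b1, whose enzyme regenerates active glucocorticoid, was lowest there (7.40 CPM against 18.5 to 34.8), and so was the cell cycle inhibitor gene Cdkn1a (13.7 CPM against 65.9 to 105), named after its values were seen. Cardiomyocyte markers did not move together in KO4, with Myh6 highest and Myh7 lowest of the 10 hearts, and the part of cell makeup in its profile was not tested.

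**Figure D3:**
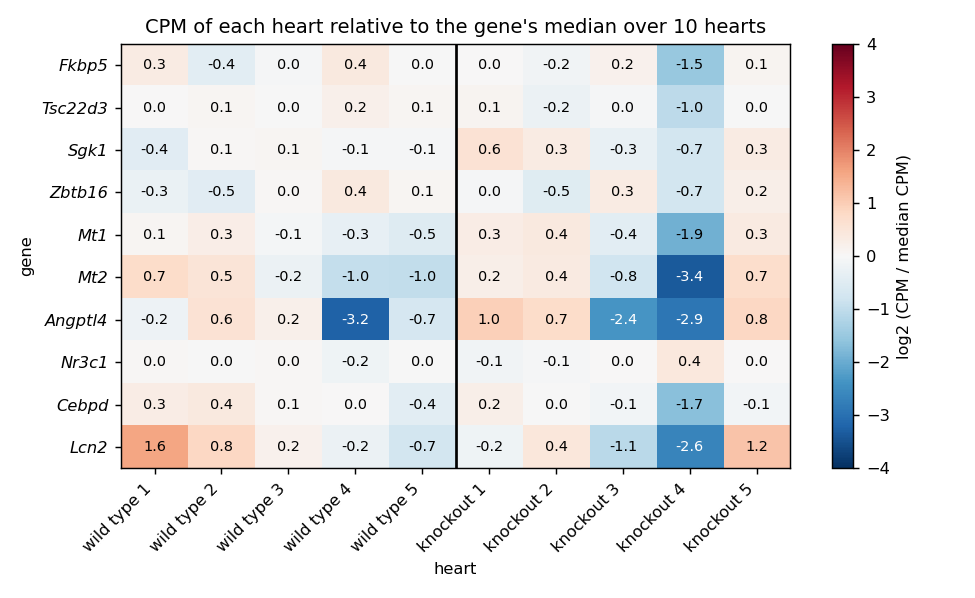
Level of each member gene in each heart as log2 of its CPM over the gene's median across the 10 hearts (blue below, red above). The KO4 column is blue for 9 genes and pale red for Nr3c1, while WT4 and KO3 are dark for Angptl4 but not for Fkbp5 or Zbtb16.

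WT4 showed a different mixture. It had the highest Fkbp5, Tsc22d3 and Zbtb16 of all hearts (76.5, 125 and 156 CPM) and the lowest Angptl4 and Nr3c1 (3.70 and 64.0 CPM). Among 33 further glucocorticoid-induced genes that were tested, WT4 was the highest heart for 14 and KO4 the lowest for 15, against 11.7% and 17.8% over all genes. Excluding KO4, Fkbp5 and Zbtb16 ran opposite to Mt1 and Angptl4 between hearts, as the relations between members show.

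Relations between members were measured over the 10 hearts on log2(CPM + 1) after subtracting each group's mean, for all 45 pairs, with Benjamini-Hochberg adjusted permutation p-values. By Pearson's r, 35 pairs were above 0 and 9 passed an adjusted p of 0.05, and by Spearman's rho 3 passed. Mt2 and Lcn2 were the pair with the smallest p (r = 0.943 and rho = 0.976, each with permutation p = 8e-05, adjusted p = 0.0036). Leaving out the hearts farthest in Mt2, WT5 and KO4, gave r = 0.933. Mt1 and Mt2 followed each other as well (r = 0.968, permutation p = 0.00117, adjusted 0.0193, and rho = 0.903, permutation p = 0.00153, adjusted 0.0229, with r = 0.916 without KO2 and KO4). Mt1 and Lcn2 were the third pair past the threshold by both measures (r = 0.864, permutation p = 0.00172, adjusted 0.0193, and rho = 0.879, permutation p = 0.00135, adjusted 0.0229, with r = 0.828 without KO2 and KO4). These 3 relations were about as strong without KO4, at 0.948, 0.907 and 0.828. They were not measured without WT1, the highest heart for Mt2 and Lcn2.

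Angptl4 and Cebpd passed the adjusted threshold with the metallothioneins by Pearson's r only, although rho was also above 0 in each pair. Mt1 and Angptl4 had r = 0.787 (permutation p = 0.00681, adjusted 0.0400) and rho = 0.879 (permutation p = 0.0101, adjusted 0.0759), and r = 0.798 without KO2 and KO4. Mt2 and Angptl4 had r = 0.810 (permutation p = 0.00453, adjusted 0.0400) and rho = 0.770 (permutation p = 0.0178, adjusted 0.10), and r = 0.860 without WT5 and KO4. Cebpd leaned more on the extreme hearts. Its r with Mt1 was 0.940 (permutation p = 0.00170, adjusted 0.0193, rho = 0.794, permutation p = 0.00885, adjusted 0.0759) but 0.738 without KO2 and KO4. With Mt2 it was 0.913 (permutation p = 0.00689, adjusted 0.0400, rho = 0.685, permutation p = 0.0444, adjusted 0.154) but 0.590 without WT5 and KO4.

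**Figure D4:**
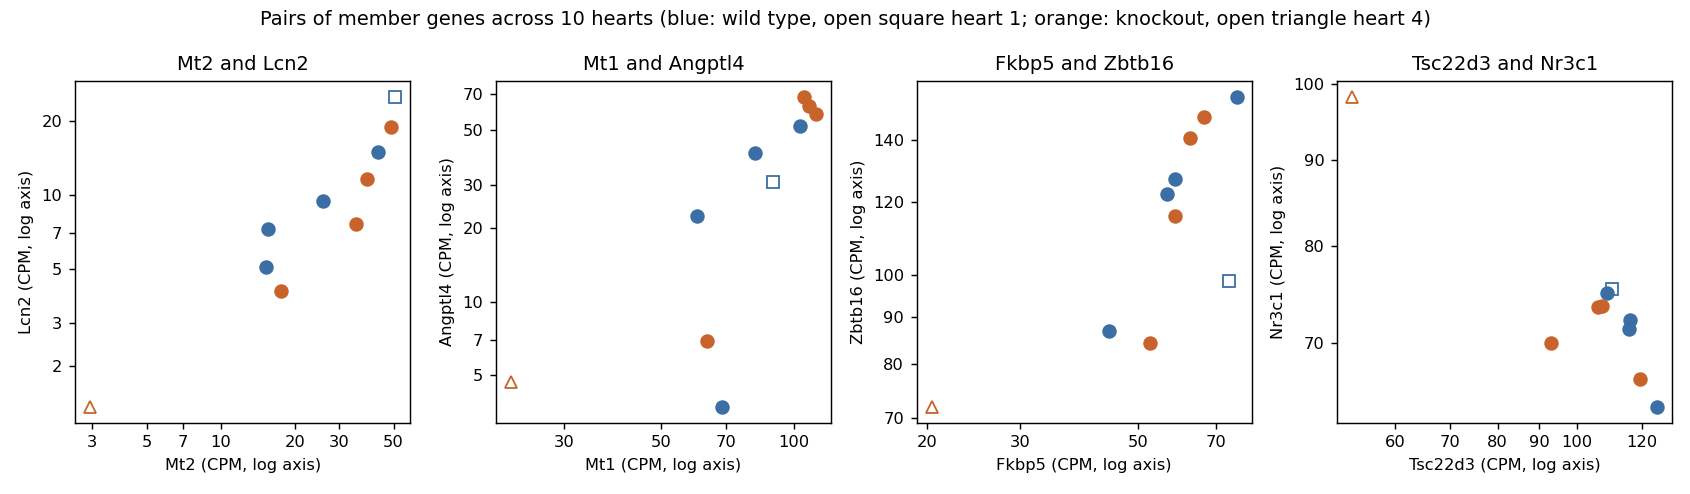
CPM of 4 pairs of member genes in the 10 hearts on log axes, blue for wild-type-labelled and orange for knockout-labelled, WT1 as an open square and KO4 as an open triangle. Mt2 and Lcn2 run together from lowest in KO4 to highest in WT1, whereas the relation of Tsc22d3 to Nr3c1 is weaker without KO4 (r = -0.926 with it, -0.597 without).

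The hormone-feedback genes formed looser pairs. Fkbp5 and Zbtb16 had r = 0.755 (permutation p = 0.00711, adjusted 0.0400) and rho = 0.830 (permutation p = 0.00739, adjusted 0.0759), with r = 0.464 without WT2 and KO4 and 0.642 without KO4 alone. Tsc22d3 and the receptor gene Nr3c1 ran opposite (r = -0.926, permutation p = 0.00818, adjusted 0.0409, rho = -0.782, permutation p = 0.0164, adjusted 0.10). The r of this pair was weaker without KO4 alone (-0.597) and without KO1 and KO4 (-0.439). When group means were not subtracted, r was -0.912, and -0.901 without KO2 and KO4. Fkbp5 and Tsc22d3 had r = 0.883 (permutation p = 0.0408, adjusted 0.115, rho = 0.661, permutation p = 0.0592, adjusted 0.185), which was 0.452 without WT2 and KO4 and 0.270 without KO4.

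KO4 set the overall impression that the 10 genes move as one. All 9 pairs with Nr3c1 were below 0 over 10 hearts, with a median r of -0.77, and without KO4 4 were above and 5 below 0. The median r of the 45 pairs was 0.66 with KO4 and 0.08 without it, when 24 were above and 21 below 0. Without KO4, as a description with no test, Zbtb16 ran against Mt1 (r = -0.720, from 0.257 with KO4), Mt2 (-0.682, from 0.169) and Angptl4 (-0.693, from -0.160), and Fkbp5 ran against Angptl4 (-0.650, from 0.235). Groups of 5 hearts are too small for a correlation within a group, and the values share libraries and their scaling.

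**Figure D5:**
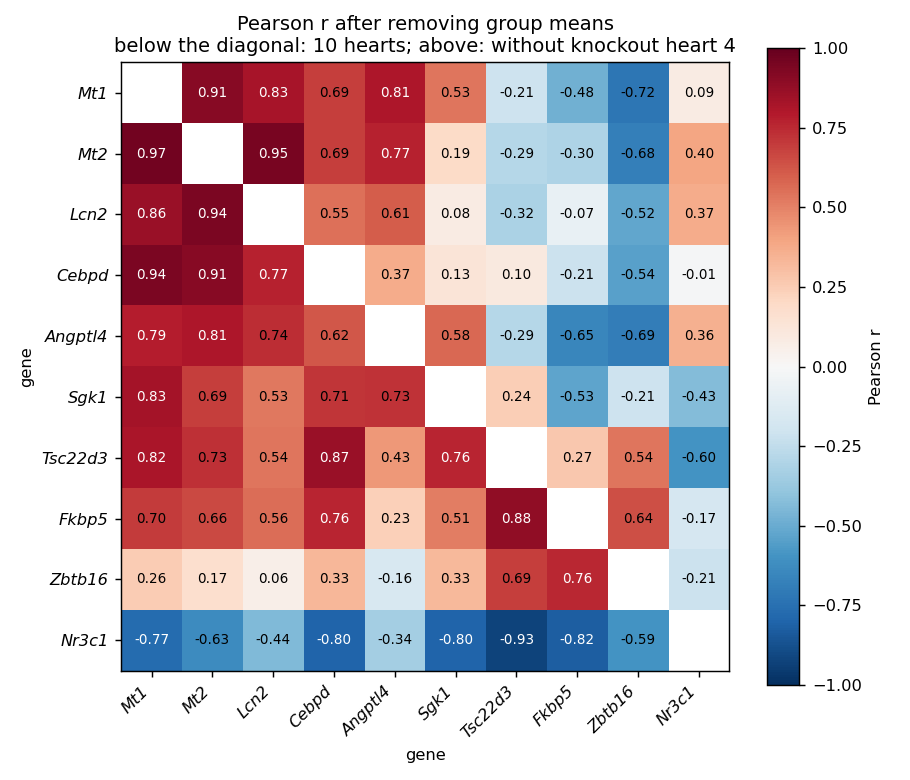
Pearson r between member genes on log2(CPM + 1) after removing group means, below the diagonal over 10 hearts and above it without KO4 (9 hearts). The block of Mt1, Mt2, Lcn2, Cebpd and Angptl4 is above 0 on both sides, while most pairs of Fkbp5 and Zbtb16 with that block are below 0 only above the diagonal.

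No further gene of the pathways fixed for the comparison passed edgeR's test between the groups. Of 20 listed genes for receptor chaperones, co-regulators and steroid enzymes, 18 were tested and 0 passed edgeR's test, with 10 above and 8 below 0 and a median log2 fold change of 0.03, and Ncoa3 and Ncor1 reached an unadjusted p under 0.05. Fkbp4 stood at 105 ± 19.8 and 106 ± 29.3 CPM in the wild-type-labelled and knockout-labelled hearts (SD, n = 5), the chaperone gene Hsp90ab1 at 945 ± 95.2 and 922 ± 48.3, Nr3c2 at 23.1 ± 3.68 and 25.1 ± 6.19, and Hsd11b1 at 24.8 ± 6.78 and 22.9 ± 10.2 CPM. Each difference was smaller than the spread between hearts.

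Of 35 other genes that glucocorticoids widely induce, 33 were tested and 0 passed edgeR's test, with 10 above and 23 below 0 and a median of -0.11. Over all genes tested, 53.4% were below 0. Without WT1, 24 of the 33 were below 0 (median -0.12), and without KO4, 20 of the 33 (median -0.05). The clock gene Per1 had 52.0 ± 7.86 and 56.6 ± 2.15 CPM, and the Krüppel-like factors Klf9 and Klf15 had 193 ± 25.0 and 179 ± 15.3, and 48.1 ± 12.95 and 43.3 ± 6.25 CPM (SD, n = 5). The MAP kinase phosphatase gene Dusp1, whose product acts on p38α, had 56.3 ± 18.9 and 54.1 ± 14.7 CPM. Errfi1, an inhibitor of the EGF receptor, had 26.3 ± 3.13 and 27.0 ± 8.34 CPM, Nfkbia, the inhibitor of NF-κB, 30.1 ± 5.84 and 30.1 ± 7.69, and Pdk4 2302 ± 976 and 2763 ± 1825 CPM. Each of these 7 genes lay within the spread between hearts.

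Unadjusted p-values under 0.05 among these targets came from Ptgds, Cyp2b10, Pck1 and Tat. Ptgds, which encodes a prostaglandin D synthase and is named after its values were seen, was the nearest to a call. It had 110, 134, 185, 275 and 167 CPM in WT1 to WT5 and 86.6, 79.5, 106, 57.7 and 68.8 CPM in KO1 to KO5, so that all knockout-labelled hearts were below all others. Its log2 fold change of -1.13 ± 0.24 (SE) did not pass edgeR's test (adjusted p = 0.145), but passed DESeq2 (adjusted p = 5.80e-04), limma voom with quality weights (0.0319), edgeR on library totals alone (0.0427) and edgeR with 1 surrogate variable (0.0263). Among genes that glucocorticoids repress, 10 of 13 were tested and 0 passed edgeR's test, with 2 above and 8 below 0, a median of -0.39 and Cxcl10 at an unadjusted p under 0.05. Over all genes tested, 53.4% were below 0. WT1 was the highest heart for 4 of the 10, and without it 7 were below 0, with a median of -0.17. The chemokine gene Ccl2 had 3.49 ± 2.52 and 2.45 ± 2.51 CPM, and Il6 was not tested, at means of 0.0715 and 0.0669 CPM.

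Of 25 genes of zinc and copper handling, 21 were tested and 0 passed edgeR's test, with 6 above and 15 below 0 and a median of -0.03. Over all genes tested, 53.4% were below 0. WT1 was the highest heart for 9 of the 21, against 27.8% of all genes. Without WT1, 10 of the 21 were below 0, with a median of 0.0. The zinc sensor gene Mtf1 stood at 16.0 ± 0.885 and 15.9 ± 1.89 CPM, its target Slc30a1, a zinc exporter, at 28.6 ± 1.602 and 28.2 ± 1.39, and the zinc importer Slc39a14 at 57.9 ± 7.34 and 60.4 ± 9.96 CPM (SD, n = 5). The highest heart was 1.39 times the lowest for Mtf1, 1.17 times for Slc30a1 and 1.53 times for Slc39a14, against 17.2 times for Mt2. Mtf1 was lowest in KO4 (12.65 CPM) and next lowest in WT4 (14.7 CPM). The part of MTF-1 in the metallothionein levels was not tested. Slc39a8, a zinc, iron and manganese importer named after its values were seen, had 34.0, 18.3, 15.1, 14.9 and 11.6 CPM in WT1 to WT5 and 6.10, 6.06, 9.33, 6.46 and 11.9 CPM in KO1 to KO5. KO5 overlapped the lowest wild-type-labelled heart, and the log2 fold change of -1.24 ± 0.30 (SE) passed DESeq2 (adjusted p = 0.00695) but not edgeR (adjusted p = 0.314).

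In the lipoprotein lipase and PPAR list, 16 of 17 genes were tested and 0 passed edgeR's test or had an unadjusted p under 0.05, with 14 above and 2 below 0 and a median of 0.12. Lpl, the enzyme that Angptl4 inhibits, had 7768 ± 1740 and 8111 ± 482 CPM, and its endothelial anchor Gpihbp1 had 50.5 ± 11.2 and 61.4 ± 19.3 CPM (SD, n = 5). The receptor gene Ppara stood at 25.1 ± 5.72 and 30.1 ± 8.26 CPM and Plin2 at 96.6 ± 34.7 and 94.0 ± 41.1 CPM. WT1 was the lowest heart for 9 of the 16, against 22.5% of all genes.

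Of 28 acute phase genes, 21 were tested and 0 passed edgeR's test. Fitted values were below 0 for 20 of the 21, against 53.4% of all genes tested, with a median of -0.41, and for 17 of the 21 without WT1, with a median of -0.15. WT1 was the highest heart for 16 of the 21, against 27.8% of all genes, and KO4 the lowest for 8. Serpina3n, a secreted protease inhibitor, had 241, 87.0, 61.7, 30.9 and 28.8 CPM in WT1 to WT5 and 46.4, 63.5, 23.7, 6.65 and 79.2 CPM in KO1 to KO5. WT1 was highest and KO4 lowest here, as for Lcn2. The epithelial and macrophage acute phase gene Saa3 stood at 15.0 CPM in WT1 and between 0.0515 and 2.11 CPM in the other 9, and Hp, Lrp2 and Saa3 reached an unadjusted p under 0.05. Timp1 had 2.84 ± 2.66 and 1.39 ± 1.008 CPM, the cytokine receptor gene Osmr 58.9 ± 11.1 and 51.0 ± 14.2, its feedback inhibitor gene Socs3 8.13 ± 3.66 and 5.77 ± 1.48, and Cebpb, the closest relative of Cebpd listed, 11.9 ± 2.19 and 11.0 ± 2.30 CPM. The part of the other tissues in WT1 in this list was not tested.

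Genes that work with SGK1 gave no call. Of 14 listed, 13 were tested and 0 passed edgeR's test or had an unadjusted p under 0.05, with 7 above and 6 below 0 and a median of 0.06. Its targets Nedd4l, a ubiquitin ligase for sodium channels, and Ndrg1 had 34.3 ± 2.19 and 34.2 ± 3.15 CPM, and 39.2 ± 3.88 and 34.6 ± 3.32 CPM (SD, n = 5).

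The genes most like the metallothioneins in their pattern over the 10 hearts, out of 12048 protein-coding genes compared with group means removed, were Ttpal (r = 0.976), Gpx3 (0.976), Tgoln1 (0.970), Hsd11b1 (0.968) and Phkg1 (0.967). Without KO4 these values were 0.907, 0.924, 0.881, 0.881 and 0.942. Gpx3, the secreted glutathione peroxidase, had 1209, 1013, 832, 472 and 445 CPM in WT1 to WT5 and 984, 839, 517, 145 and 789 CPM in KO1 to KO5, with WT1 highest and KO4 lowest, as for Mt2. For Fkbp5 the most alike were Myot (0.974), Spock2 (0.959), St7l (0.954), Trp53inp1 (0.946) and Dpep1 (0.942), which had 0.912, 0.797, 0.882, 0.767 and 0.698 without KO4. All 10 of these genes were lowest in KO4, which choosing them by likeness to Mt1, Mt2 and Fkbp5, themselves lowest in KO4, makes likely. The r values were chosen as the highest of many and describe these libraries only.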

How the data were processed

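RNA of 10 whole hearts, 5 per genotype label, was sequenced. Per the labels' protocols, reads were aligned to GRCm39 with STAR, and the submitters' processing notes name RSEM 1.3.0. The authors deposited a table of expected counts, whole numbers throughout, so none was rounded. RSEM divides reads shared by similar genes by estimation, so Mt1 and Mt2 were also summed. Symbols came from GENCODE for 78168 of 78298 identifiers. Nothing says that replicates beyond their labels are separate animals, so p-values cover only the variation from sample to sample, which may be technical. Of 20 pairs within a group none agreed within sampling noise (chi-square per degree of freedom at least 8.59).

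The main test was edgeR 4.0.16's quasi-likelihood F test in R 4.3.3 (TMM, default filter with minimum count 10, robust, no covariate) with Benjamini-Hochberg adjustment over 16700 genes at 0.05. Standard errors are the absolute log2 fold change over the square root of F, and intervals are 95%. Two-sided exact permutation tests over 252 splits (smallest p 0.00794) used log2(CPM + 1), and relations used 100000 permutations within groups. Alternatives were other scalings and filters, DESeq2 1.42.0, limma 3.58.1 voom, sva 3.50.0 and libraries left out. The test scripts were tested on simulated data. Named genes were the members, Mapk13, pathway genes that passed the test, a set of fixed pathway genes, chromosome 17 neighbours and the 5 most alike genes. Myh7 and Kdr were named after their values were seen. Members, lists and the rule were chosen with earlier results of these data known. Totals of 21403189 to 40627138 counts set the precision for sparsely read genes, and the floor of 3 counts covers counting error only.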

Additional observations from a re-analysis of the deposited data

Results flagged for a closer look

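A single heart stood far from the other 4 of its group in the following genes, by Dixon's test at the 95% level (gap over range above 0.71). Nr3c1 was 98.3 CPM in KO4, highest of the knockout-labelled hearts, and Ccl2 was 6.80 CPM in KO5. In WT1, Hsp90ab1 was lowest of its group at 779 CPM, while Il6 (0.176 CPM), Saa3 (15.0 CPM), Serpina3n (241 CPM) and Mapk13 (6.41 CPM) were highest. Chance alone marks about 1 in 20 groups, and over all genes 11.7% of groups were marked, 11.1% of genes with WT1 highest and 3.01% with KO4 highest. The low values of KO4 in 8 members did not pass this test, and over all genes KO4 was lowest and passed it in 1.22%.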

How the results depend on the processing

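edgeR called 59 genes, DESeq2 118 and quality-weighted voom 91, and edgeR 47 to 75 when each library was left out in turn. No member was called under any of 21 alternatives. Of 210 values of members under alternatives, 188 had the direction of the reported value and 22 did not, and the lowest adjusted p was 0.645. Among glucocorticoid-induced genes 1 was called, Ptgds, with library totals, DESeq2, quality weights or 1 surrogate variable, and among metal-handling genes 1, Slc39a8, with DESeq2. On the log2 scale, leaving out WT1 and KO4 together turned Fkbp5 to 0.0355, Mt2 to 0.494, Lcn2 to 0.211 and the sum of Mt1 and Mt2 to 0.358 (exact permutation p = 0.286). Scaling by library totals, which moved the median of all genes to -0.116, turned Mt1 to -0.0733 and Nr3c1 to -0.0199. Voom gave Mt1 -0.141, quality weights Mt2 0.147, and 1 surrogate variable Mt2 0.353 and Lcn2 0.0711. The cause was not tested. Leaving out single libraries gave -0.350 to -0.0425 for Fkbp5, -0.359 to -0.114 for Tsc22d3, 0.0446 to 0.339 for Sgk1, -0.195 to 0.0510 for Zbtb16, -0.105 to 0.273 for Mt1, -0.345 to 0.224 for Mt2, 0.148 to 0.725 for Angptl4, -0.0137 to 0.140 for Nr3c1, -0.433 to -0.0782 for Cebpd, -1.01 to -0.0713 for Lcn2 and -0.383 to 0.261 for the metallothionein sum. No paired analysis was possible because the groups share no replicate numbers in the labels. The lowest counts among the members were 42 for Lcn2 in KO4, 77 for Angptl4 in WT4 and 91 for Mt2 in KO4. Library totals were 33477767 counts in KO4 and 22082289 in WT4.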
